A study of Mus musculus with 9 samples.

Results

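The COPII coat genes are 10 genes of mouse HC11 mammary epithelial cells: Sar1a, Sar1b, Sec23a, Sec23b, Sec24a, Sec24b, Sec24c, Sec24d, Sec13 and Sec31a. They were found by symbol among the 54532 genes of the count table, and all 10 were among the 14471 genes with enough counts to be tested. The set was put forward around Sec23a, which was selected on its lower counts in EpPT1 than in Ctrl, and the other 9 were added because their products belong to the same coat. The comparison of EpPT1 with Ctrl is therefore a description without a test for these genes.

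COPII is the protein coat that buds transport vesicles from the endoplasmic reticulum (ER) and so carries newly made secretory and membrane proteins towards the Golgi. The small GTPase Sar1 binds GTP and inserts into the ER membrane, recruits the inner coat of Sec23 and Sec24, and the outer coat of Sec13 and Sec31 then polymerises over it. Sec23 is the activator of Sar1's GTPase, and Sec24 holds the sites that bind cargo. In the mammary epithelium this route exports milk proteins such as the caseins.

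HC11 is a mouse mammary epithelial line, and the labels give its strain as C57BL/6. EpPT2 and EpPT1 were exposed to 660 nm light and Ctrl was untreated, with 3 libraries each, and all 9 came from the same line in the same serum-containing medium. Fluence was labelled as 20 J/cm2 for EpPT2 and 10 J/cm2 for EpPT1, but the protocol of the same samples states 0.5 and 1 J/cm2 for a laser of 10 mW, and no dose is attached to either name below. The wait between light and RNA is not stated. Separate cultures are not recorded for replicates, so p-values measure only how far these libraries spread, and that spread may be technical. In bulk RNA, fewer cells that express a gene and less of its RNA per cell cannot be told apart.

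The libraries held between 14549787 and 17228929 counts. Mitochondrial genes took 3.38%, 6.06% and 6.94% of the counts in EpPT2, 3.44%, 2.74% and 6.93% in EpPT1, and 2.86%, 3.62% and 7.48% in Ctrl. Replicate 3 of each group and EpPT2 replicate 2 were over 5%, and the other 5 libraries were under it. EpPT2 replicates 2 and 3 were closer to each other (chi-square of 4.95 per gene, where sampling noise alone gives about 1) than any other pair within a group (52.1 to 162.6). The luminal keratin genes Krt8, Krt18 and Krt19 were each at 245 or more CPM (counts scaled to the library's total, with TMM factors) in every library, while E-cadherin (Cdh1) stayed below 0.777 CPM. Across all 14471 genes, edgeR's quasi-likelihood test called none at an adjusted p under 0.05 in any of the 3 comparisons, and the median standard error (SE) of a log2 difference was 0.37.

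The promoters of the Sec23 paralogues are shown because the set was put forward around Sec23a, and Sec23b is its paralogue. Each run is the 250 bases before the transcription start, 5′ to 3′ on the gene's strand, from RefSeq on GRCm38.p6. The Sec23a window lies at chr12:59012018-59012267 (minus strand) and the Sec23b window printed here at chr2:144555979-144556228 (plus strand). Capitals mark exact matches on either strand to 3 motifs. The GC box, which Sp factors bind, is GGGCGG, and reads CCGCCC where it lies on the other strand. The CCAAT box reads as ATTGG on the other strand. The core of the cyclic AMP response element is TGACGT.
Sec23a: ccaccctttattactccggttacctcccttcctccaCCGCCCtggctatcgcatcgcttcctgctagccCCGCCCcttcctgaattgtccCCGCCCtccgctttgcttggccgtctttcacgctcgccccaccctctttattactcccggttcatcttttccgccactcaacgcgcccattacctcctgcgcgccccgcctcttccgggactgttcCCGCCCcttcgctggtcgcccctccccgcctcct
Sec23b: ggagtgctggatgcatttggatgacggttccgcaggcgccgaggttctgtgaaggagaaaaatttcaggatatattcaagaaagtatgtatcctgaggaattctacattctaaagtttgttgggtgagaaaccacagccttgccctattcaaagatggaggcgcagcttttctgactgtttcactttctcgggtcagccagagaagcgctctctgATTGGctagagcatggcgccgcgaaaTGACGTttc
The Sec23a window holds 4 GC boxes and neither of the other motifs, and its bases are 64% G or C. This Sec23b window, the one at the annotated start of the gene, holds 1 CCAAT box, 35 bases before the start, and 1 TGACGT, 9 bases before it, and is 48% G or C. RefSeq's table has another start of Sec23b, whose window from 144564649 to 144564898 holds 1 CCAAT box and neither of the other motifs and is 39.6% G or C. Of the 32851 promoter windows of the same length in the table, 32.74% hold a GC box, 33.85% a CCAAT box and 6.469% a TGACGT. None of the searched motifs overlaps another in these windows, and a match describes the letters only.

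Sec23a (ENSMUSG00000020986, 58958383 to 59012017 on chromosome 12, GRCm38) encodes the inner coat subunit that activates Sar1. It measured 50.6, 49.7 and 47.9 CPM in EpPT2, 55.3, 51.4 and 48.2 CPM in EpPT1, and 91.9, 57.9 and 173 CPM in Ctrl. All 6 exposed libraries lay below all 3 Ctrl libraries, and Ctrl replicate 2 was the nearest to them. The exposed libraries held Sec23a within a narrow range of 47.9 to 55.3 CPM, a coefficient of variation of 5.38%, and 0.732% of tested genes had a lower one over the same 6 libraries. These 6 include the EpPT1 libraries that the gene was chosen by, so that rank is a description. The mean was 49.4 ± 1.34 CPM in EpPT2, 51.6 ± 3.59 CPM in EpPT1 and 107 ± 58.9 CPM in Ctrl (SD, n = 3 each), so most of the spread was in Ctrl.

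The log2 difference of Sec23a in EpPT1 against Ctrl was -1.06 (SE 0.34), which is the value the gene was chosen by. Groups that did not overlap and were lower occurred in 2.53% of tested genes in that comparison. In EpPT2 against Ctrl the difference was -1.12 (SE 0.34), with an unadjusted p of 0.00773 and an adjusted p of 0.376 by edgeR's quasi-likelihood test, so the gene did not pass. The Ctrl libraries are the same in both comparisons, so the second value is not independent of the first. Here 10.9% of tested genes had groups that did not overlap and were lower, 5.31% were lower at an unadjusted p under 0.05, and 0% passed the adjusted threshold. Without Ctrl replicate 3 the difference was -0.60 in EpPT2 (unadjusted p 0.036, adjusted p 0.33) and -0.54 in EpPT1, so that library made up a large part of it. EpPT2 and EpPT1 differed in Sec23a by -0.06 (SE 0.34).

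**Figure D1:**
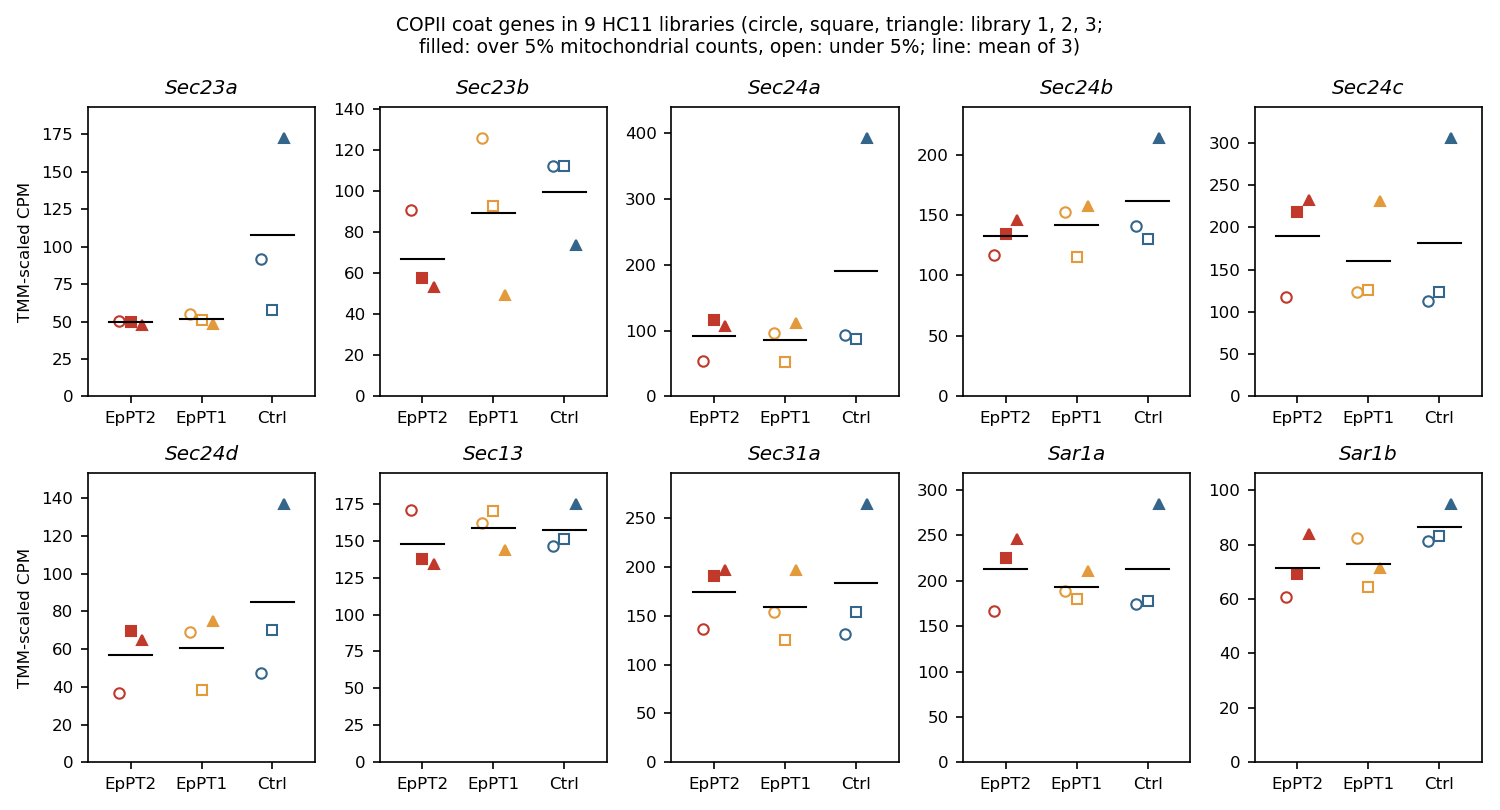
TMM-scaled CPM of each COPII coat gene in the 9 libraries, on linear axes from 0, with EpPT2 on the left, EpPT1 in the middle and Ctrl on the right. Circles, squares and triangles are libraries 1, 2 and 3, filled where over 5% of counts were mitochondrial, and lines are means of 3. Sec23a lies between 47.9 and 55.3 CPM in all 6 exposed libraries and at 57.9 CPM or above in Ctrl, and Ctrl replicate 3 is the top point for every gene but Sec23b.

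Sec23b, the paralogue of Sec23a with the same role in the coat, separated by the mitochondrial share of the libraries. It measured 90.9, 57.5 and 53.2 CPM in EpPT2, 126, 92.9 and 49.5 CPM in EpPT1, and 112, 112 and 73.6 CPM in Ctrl. The groups overlapped, and the 4 lowest values (49.5 to 73.6 CPM) were the 4 libraries with over 5% mitochondrial counts, against 90.9 to 126 CPM in the other 5. Among all tested genes, 18% were below in the same way. The log2 difference was -0.56 (SE 0.35, unadjusted p 0.141, adjusted p 0.503) in EpPT2 against Ctrl, -0.15 (SE 0.35) in EpPT1 against Ctrl, and -0.41 (SE 0.35, unadjusted p 0.27) in EpPT2 against EpPT1. In the last comparison 0.145% of tested genes were lower at an unadjusted p under 0.05, 1.2% had non-overlapping groups with EpPT2 lower, 0% passed the adjusted threshold, and no coat gene was among any of these.

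Per kilobase of summed exon length, so that the paralogues can be compared, Sec23a and Sec23b were at like levels: 14.4 ± 8.48 and 13.5 ± 4.49 CPM per kb (SD over 9 libraries). Sec23a made up 42.0%, 53.0% and 54.0% of their summed level in EpPT2, 36.4%, 41.9% and 55.9% in EpPT1, and 51.6%, 40.2% and 75.3% in Ctrl. The share ranges overlapped in every pair of groups, and Ctrl replicate 3 was the one library in which Sec23a took more than 55.9%. The summed level of both genes was 20.9 ± 3.50 CPM per kb in EpPT2, 24.9 ± 6.82 in EpPT1 and 38.0 ± 8.82 in Ctrl (SD, n = 3 each). In EpPT2 the highest sum, 24.9 CPM per kb, was below the lowest Ctrl sum of 29.8, while EpPT1 replicate 1, at 31.4, was above it. This sum contains the gene that was chosen for its lower value and is given as a description.

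The 4 Sec24 paralogues bind different sets of cargo signals, with Sec24a close to Sec24b in sequence and Sec24c close to Sec24d. Sec24a measured 53.6, 116 and 107 CPM in EpPT2, 96.1, 51.6 and 112 CPM in EpPT1, and 93.4, 86.8 and 393 CPM in Ctrl. One library set its group mean: Ctrl replicate 3 held 4.36 times the mean of the other Ctrl libraries, and those others lay within the range of the exposed ones. Its log2 difference was -1.05 (SE 0.58, unadjusted p 0.097, adjusted p 0.456) in EpPT2 against Ctrl and -1.14 (SE 0.58) in EpPT1 against Ctrl, similar in size to that of Sec23a. Without Ctrl replicate 3 the values of Sec24a were 0.03 and -0.06.

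Sec24d showed the same shape at a smaller size, with 36.6, 69.7 and 64.9 CPM in EpPT2, 68.9, 38.3 and 74.9 CPM in EpPT1, and 47.5, 70.0 and 137 CPM in Ctrl. The difference of Sec24d in EpPT2 against Ctrl was -0.57 (SE 0.42, unadjusted p 0.202) and -0.04 without Ctrl replicate 3. Sec24c measured 117, 218 and 232 CPM in EpPT2, 123, 126 and 231 CPM in EpPT1, and 113, 124 and 306 CPM in Ctrl. The 9 values of Sec24c lay in 2 ranges that cut across the groups, 218 to 306 CPM in the 4 libraries over 5% mitochondrial counts and 113 to 126 CPM in the other 5. Its difference in EpPT2 against Ctrl was 0.06 (SE 0.43). Sec24b varied least of the 4, with 117, 135 and 146 CPM in EpPT2, 152, 115 and 158 CPM in EpPT1, and 141, 130 and 214 CPM in Ctrl, and a difference of -0.29 (SE 0.24, unadjusted p 0.263) in EpPT2 against Ctrl.

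Per kilobase, Sec24c (28.1 ± 11.3 CPM per kb, SD over 9 libraries) and Sec24b (24.1 ± 4.91) were above Sec24a (11.5 ± 9.71) and Sec24d (10.7 ± 4.70). Sec24c was 42.5 ± 3.83% of the summed Sec24 level in EpPT2, 37.8 ± 6.72% in EpPT1 and 32.6 ± 1.45% in Ctrl (SD, n = 3 each). The 3 EpPT2 shares of Sec24c, 38.1% to 45.3%, lay above the 3 Ctrl shares, 31.2% to 34.1%. The CPM of Sec24c also separated by the mitochondrial share of the libraries, and its GC content, 52.1%, was the highest of the 4 paralogues. The part of either in its share of the sum was not tested. Sec24a was 12.1 ± 1.72% of that sum in EpPT2, 11.9 ± 2.14% in EpPT1 and 18.1 ± 6.70% in Ctrl. These shares were not tested, and how often shares of other genes separate between groups was not counted.

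**Figure D2:**
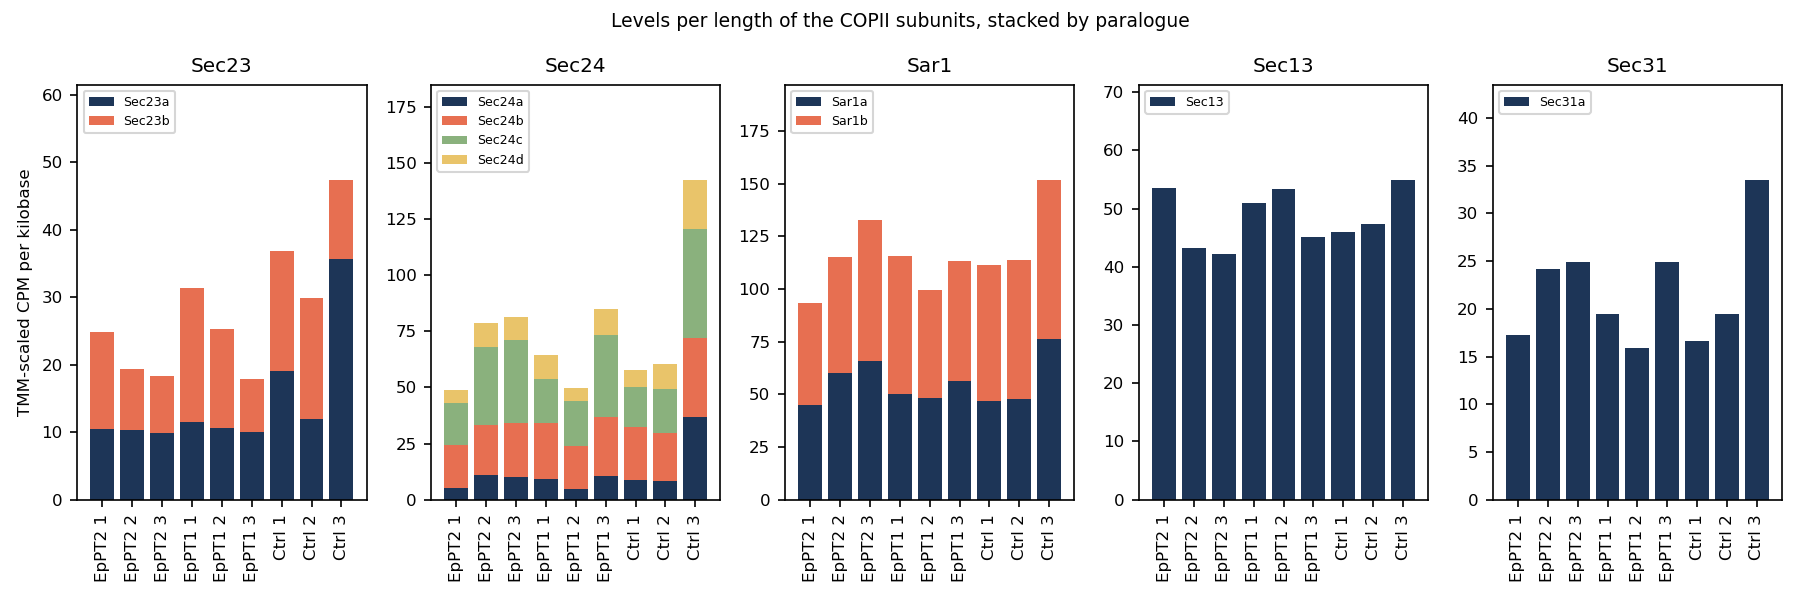
Levels of the COPII coat genes in CPM per kb of summed exon length, as bars from 0 for each library, stacked by paralogue, with EpPT2 left, then EpPT1, then Ctrl. The Sec23 stack reaches 47.3 CPM per kb and the Sec24 stack 142.5 CPM per kb in Ctrl replicate 3, both the highest of the 9 libraries, while the Sec13 bars stay between 42.2 and 54.9 CPM per kb.

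Sar1a and Sar1b, the GTPases that start coat assembly, had the highest levels per length, 55.1 ± 10.5 and 61.2 ± 8.74 CPM per kb (SD over 9 libraries), which do not differ beyond their spread. Sar1a measured 167, 225 and 246 CPM in EpPT2, 188, 180 and 211 CPM in EpPT1, and 174, 178 and 284 CPM in Ctrl, so all groups overlapped. Its log2 difference was 0.00 (SE 0.25) in EpPT2 against Ctrl and -0.14 (SE 0.25) in EpPT1 against Ctrl. Sar1b measured 60.8, 69.2 and 83.8 CPM in EpPT2, 82.2, 64.4 and 71.4 CPM in EpPT1, and 81.5, 83.1 and 94.9 CPM in Ctrl. In Sar1b, EpPT2 replicate 3 and EpPT1 replicate 1 lay within the Ctrl range and the other 4 exposed libraries below it, with a difference of -0.28 (SE 0.20, unadjusted p 0.2, adjusted p 0.557) in EpPT2 against Ctrl. On chromosome 11 the annotated starts of Sar1b and Sec24a lie 52 bases apart on opposite strands. RefSeq's table has another start of Sec24a inside the gene, with its window from 51756835 to 51757084. In Ctrl replicate 3, Sar1b was 1.15 times the mean of the other Ctrl libraries, and Sec24a 4.36 times.

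Of the outer coat genes, Sec13, a beta-propeller protein that is also part of the nuclear pore, measured 170, 138 and 134 CPM in EpPT2, 162, 170 and 143 CPM in EpPT1, and 146, 151 and 175 CPM in Ctrl. It was the steadiest of the 10 genes over all 9 libraries, with the highest value 1.3 times the lowest, and its difference in EpPT2 against Ctrl was -0.09 (SE 0.19). Sec31a, the rod-shaped partner of Sec13, measured 136, 191 and 196 CPM in EpPT2, 153, 125 and 196 CPM in EpPT1, and 131, 153 and 264 CPM in Ctrl, with a difference of -0.07 (SE 0.30) in EpPT2 against Ctrl. Per kilobase Sec13 (48.5 ± 4.77 CPM per kb) was above Sec31a (21.8 ± 5.64).

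Over the 10 coat genes, 8 had a log2 difference below 0 in EpPT2 against Ctrl (52.1% of tested genes did), with a median of -0.28 against -0.03 over all tested genes. In EpPT1 against Ctrl 9 were below 0 (52% of tested genes), with a median of -0.20 against -0.02. Sec23a was the 1 coat gene whose exposed libraries did not overlap with Ctrl, in both comparisons. It was chosen for its lower EpPT1 values, and both comparisons use the same Ctrl libraries, so this is a description. The counts and medians over the 10 genes include Sec23a. Among all tested genes, 10.9% in EpPT2 and 2.53% in EpPT1 lay below Ctrl without overlap. In EpPT2 against EpPT1, 6 of 10 were below 0 (51.7% of tested genes), and the median was -0.05. That count was 4 without EpPT1 replicate 1 or EpPT2 replicate 1. It was 8 without EpPT1 replicate 2 and 10 with the mitochondrial share as a covariate. Every log2 difference of the 10 genes in EpPT2 against EpPT1 had an adjusted p of 0.9999 by edgeR's quasi-likelihood test.

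**Figure D3:**
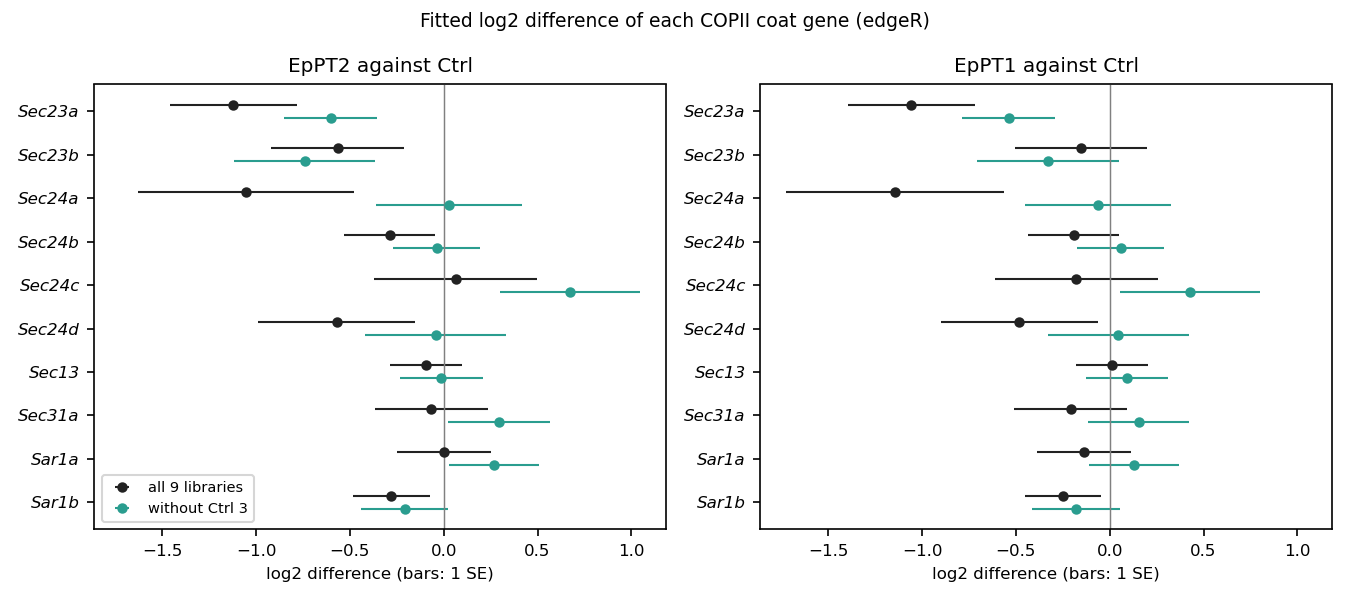
Log2 differences of the COPII coat genes from edgeR's fit in EpPT2 against Ctrl (left) and EpPT1 against Ctrl (right), with bars of 1 SE, for all 9 libraries (black) and without Ctrl replicate 3 (green). Values below 0 are lower in the exposed group. On the left, Sec24a lies at 0.03 without that library and at -1.05 with it, and Sec23a at -0.60 without it and at -1.12 with it.

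Ctrl replicate 3 weighed on these counts. It was the highest of the 9 libraries for 9 of the 10 coat genes, all but Sec23b, whereas 17.4% of tested genes were highest there. It held 2.3 times the mean of the other Ctrl libraries for Sec23a, 2.58 times for Sec24c, 2.33 times for Sec24d and 1.86 times for Sec31a, and 0.655 times for Sec23b. Without Ctrl replicate 3, 6 of 10 coat genes were below 0 in EpPT2 against Ctrl and 4 of 10 in EpPT1 against Ctrl. Without Ctrl replicate 1 or Ctrl replicate 2, all 10 were below 0 in both comparisons. Its mitochondrial share, 7.48%, and its summed fibroblast markers, 3295 CPM against 743 to 2148 CPM in the other 8 libraries, were also the highest. Decorin (Dcn) made up nearly all of that sum, with up to 3288 CPM, while Thy1 was at 0 in all 9 libraries and Col1a1 and Col3a1 reached at most 3.34 and 1.71 CPM. The part of these features in the coat gene values was not tested.

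**Figure D4:**
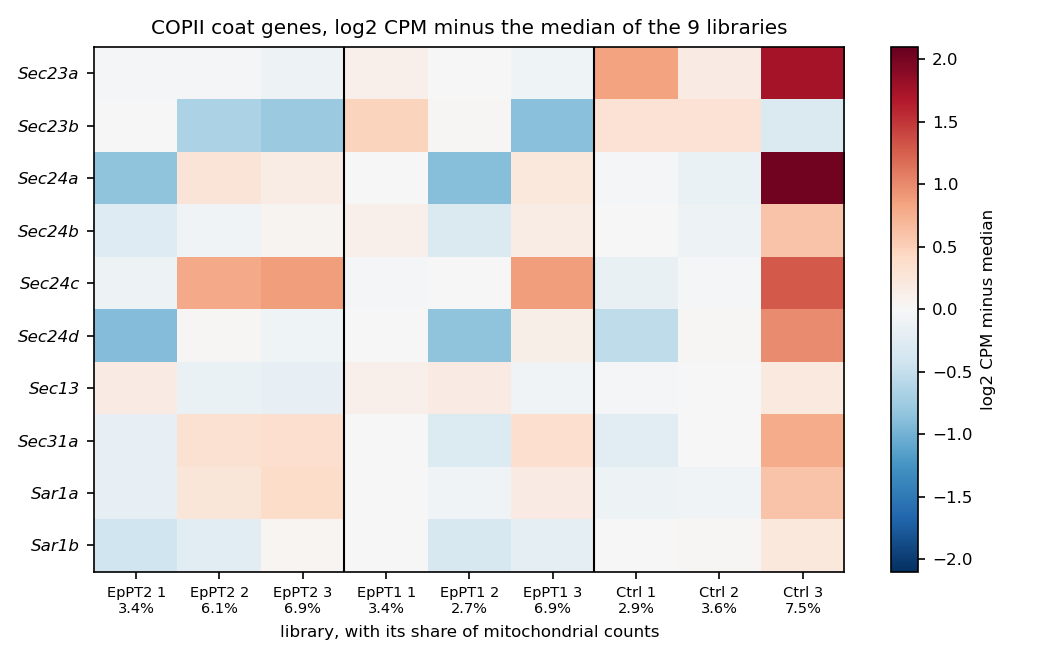
Log2 level of each COPII coat gene in each library relative to the gene's median over the 9 libraries, with the EpPT2 libraries on the left, EpPT1 in the middle and Ctrl on the right. The column of Ctrl replicate 3 is above the median for 9 of the 10 genes, and Sec23b is below it there and in the other 3 libraries with over 5% mitochondrial counts.

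Of the 10 coat genes, 5 separated without overlap by the mitochondrial share of the library. In the 4 libraries over 5%, Sec24a (107 to 393 CPM), Sec24c (218 to 306 CPM), Sec31a (191 to 264 CPM) and Sar1a (211 to 284 CPM) were each above all 5 libraries under 5%, which held 51.6 to 96.1, 113 to 126, 125 to 153 and 167 to 188 CPM of these genes in that order. Sec23b was the 1 coat gene below in all 4. Of all tested genes, 16.5% were above and 18% below in this way. Sec23a, Sec24b, Sec24d, Sec13 and Sar1b overlapped between these library sets. The summed basal markers (Krt5, Krt14 and Trp63) were 19.5 to 23.6 CPM in the 4 libraries and 4.65 to 9.81 CPM in the 5, and the summed blood and immune markers 87.7 to 103 CPM and 8.87 to 45.6 CPM. Cd68, which encodes a lysosomal membrane protein, made up most of the blood and immune sum, with Hbb-bs at or below 0.0751 CPM and Ptprc at or below 0.763 CPM. Summed luminal markers were 1631 to 2576 CPM and fat cell markers, nearly all Lpl, 231 to 409 CPM over the 9 libraries.

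Base composition also went with the size of the differences. Sec23b (41.2% G or C), Sec23a (42.4%), Sar1b (42.8%) and Sec24a (43.7%) had the lowest GC content of the 10 genes, against a median of 49.4% over tested genes. The Spearman correlation of the log2 difference with GC content in EpPT2 against Ctrl was 0.552 across the 10 coat genes and 0.62 across all tested genes. In EpPT1 against Ctrl it was 0.6 across all tested genes. These are correlations across genes within the same libraries and genes are not independent replicates. The slope of log2 CPM per 10 points of GC content was 0.03, 0.13 and 0.12 in the EpPT2 libraries. It was -0.51, 0.02 and 0.21 in EpPT1, and -0.65, -0.38 and -0.39 in Ctrl. These slopes did not overlap between EpPT2 and Ctrl, so the GC trend and the exposure cannot be told apart in that comparison. With the GC trend removed, Sec23a was -0.80 in EpPT2 against Ctrl (unadjusted p 0.0404, adjusted p 0.798) and -0.83 in EpPT1 against Ctrl. The part of base composition in the remaining difference was not tested.

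**Figure D5:**
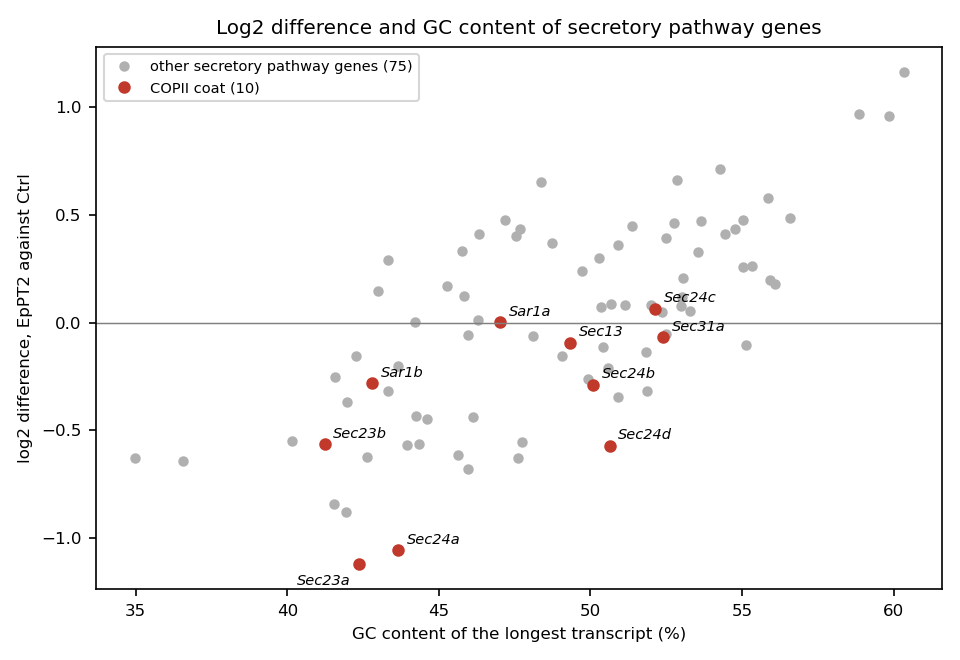
Log2 difference in EpPT2 against Ctrl against the GC content of the longest transcript, for the 10 COPII coat genes and 75 other genes of the secretory pathway lists. Sec23a, Sec23b, Sar1b and Sec24a lie at the low end of GC content, and Sec23a is the lowest coat gene, at -1.12.

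Genes around the coat were counted from lists of the same route. Of the COPII cofactors, which place or regulate the coat, 9 of 10 were tested, 4 were lower and 5 higher in EpPT2 than in Ctrl, and the median was 0.05. Tfg, which gathers coat components at ER exit sites, measured 69.7, 61.4 and 62.8 CPM in EpPT2, 107, 72.7 and 59.1 CPM in EpPT1, and 91.1, 92.6 and 116 CPM in Ctrl. EpPT2 lay below Ctrl in every library for Tfg, with a difference of -0.63 (SE 0.25, unadjusted p 0.0278, adjusted p 0.378), and EpPT1 overlapped Ctrl. Of the 9 cofactors, 2 were lower than Ctrl without overlap in EpPT2 (10.9% of tested genes) and 1 in EpPT1 (2.53%). Sec16a, the scaffold of ER exit sites, differed by 0.05 (SE 0.26) and Preb, the exchange factor that loads Sar1 with GTP, by 0.08 (SE 0.21). Mia3 and Mia2, which help package large cargo such as collagen, differed by 0.12 (SE 0.32) and -0.44 (SE 0.29), and Klhl12, the adaptor that ubiquitinates Sec31, by -0.15 (SE 0.33).

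Of the cargo receptors, 23 of 24 were tested, and 17 were higher and 6 lower in EpPT2 than in Ctrl, with a median of 0.39. Surf4, a receptor for soluble cargo, differed by 0.44 (SE 0.35), Tmed10, of the p24 family, by 0.29 (SE 0.25), and Lman1, a lectin that carries glycoproteins, by 0.00 (SE 0.24). In EpPT1 against Ctrl 15 of the 23 were higher and 8 lower, with a median of 0.08, but 1 library turned this count: 19 were lower without EpPT1 replicate 3, and 5 without Ctrl replicate 3. Without overlap, 3 of the 23 were lower and 1 higher in EpPT2 than in Ctrl, beside 1577 lower and 1781 higher of all 14471 tested genes. None of the receptors passed the adjusted threshold.

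The 15 COPI coat genes, which serve the return route from the Golgi, were all tested, with 11 lower and 4 higher in EpPT2 than in Ctrl and a median of -0.20. Copb1 (beta-COP) measured 146, 146 and 161 CPM in EpPT2, 220, 156 and 154 CPM in EpPT1, and 226, 224 and 248 CPM in Ctrl. Both exposed groups lay below Ctrl in every library for Copb1, with a difference of -0.62 (SE 0.20, unadjusted p 0.012, adjusted p 0.376) in EpPT2 and -0.40 (SE 0.20) in EpPT1. Arcn1 (delta-COP) was also below Ctrl in all 3 EpPT2 libraries, with 282, 217 and 234 CPM in EpPT2, 390, 305 and 185 CPM in EpPT1, and 428, 329 and 330 CPM in Ctrl. Of the 15, 4 were lower than Ctrl without overlap in EpPT2 (10.9% of tested genes) and 1 in EpPT1 (2.53%). Copa (alpha-COP) overlapped between groups and differed by -0.26 (SE 0.40) in EpPT2. Without Ctrl replicate 3, 7 of the 15 were below 0.

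Among 21 tethers and SNAREs of the ER to Golgi step, 9 were lower and 12 higher in EpPT2 than in Ctrl, with a median of 0.06. Without overlap, 3 of the 21 were lower and 4 higher, beside 1577 lower and 1781 higher of all 14471 tested genes. The vesicle tether Uso1 differed by -0.61 (SE 0.33, unadjusted p 0.0919), and the SNAREs Stx5a and Sec22b by 0.40 (SE 0.27) and -0.32 (SE 0.22). Of the transcription factors of the secretory pathway, 7 of 9 were tested, with 6 higher and 1 lower in EpPT2 than in Ctrl. That count was not stable: 5 of the 7 were lower in the libraries under 5% mitochondrial counts alone, and 0 to 3 when 1 library was left out, with 0 without Ctrl replicate 3 or EpPT2 replicate 1, 2 without Ctrl replicate 2 or EpPT2 replicate 3, and 3 without Ctrl replicate 1 or EpPT2 replicate 2. Creb3l2, which drives Sec23a transcription in mouse chondrocytes, measured 21, 40.2 and 33.6 CPM in EpPT2, 24.6, 23.1 and 29.0 CPM in EpPT1, and 18.2, 27.1 and 35.0 CPM in Ctrl, and differed by 0.24 (SE 0.31, unadjusted p 0.457) in EpPT2. Xbp1 and Atf6, regulators of the unfolded protein response, differed by 0.07 (SE 0.51) and -0.06 (SE 0.33), and Creb3l1 was too low to test, at no more than 0.565 CPM. Atf6b, named here because its difference was the largest of the 7, differed by 1.16 in EpPT2. Its GC content, 60.3%, was also the highest of the 7, and the part of GC content in its difference was not tested. Of the 7 factors, 0 were lower and 1 higher than Ctrl without overlap in EpPT2. No gene of the 5 lists passed the adjusted threshold in any comparison by edgeR, and 2, 2, 2, 5 and 1 of them, in the order given, had an unadjusted p under 0.05 in EpPT2 against Ctrl, as did 12.2% of all tested genes.

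The genes with the pattern most like Sec23a were picked from 9629 genes with a mean of at least 5 CPM by Pearson's r of log2 CPM over the 9 libraries. They were Abi2 (r = 0.976, Spearman's rho = 0.967), Atp6v1d (r = 0.970, rho = 0.750), Tbc1d12 (r = 0.969, rho = 0.783), Ercc5 (r = 0.965, rho = 0.733) and Copb2 (r = 0.961, rho = 0.983). Abi2 belongs to the WAVE complex of actin assembly, Atp6v1d to the vacuolar proton pump, and Ercc5 is a nucleotide excision repair endonuclease. Copb2, the beta-prime subunit of the COPI coat, measured 158, 155 and 145 CPM in EpPT2, 205, 165 and 154 CPM in EpPT1, and 219, 168 and 348 CPM in Ctrl. As for Sec23a, Ctrl replicate 3 was the highest library for Copb2 and EpPT2 replicate 3 the lowest. Within the coat, r with Sec23a was highest for Sec24a (0.774, rho = -0.0667) and Sec24b (0.737, rho = 0.1). By rank, Sec23b came first, with a rho of 0.667 and an r of 0.180. The 9 points of each correlation share their libraries, and Ctrl replicate 3 lies far from the other 8 for Sec23a and Sec24a.

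The counts of these genes could in part hold reads of other loci. None of the paralogue pairs of the coat shares a run of 50 identical transcript bases, and at most 1.45% of a gene's 50-base words, in Sec13, occur in another gene. A pair of antisense transcripts overlap coat genes, Gm17529 at Sec23a with 31 counts over the 9 libraries and 6230400D17Rik at Sec24c with 702. As the strand setting of the counting is not given, reads of these pairs cannot be told apart.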

How the data were processed

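The authors deposited raw RNA-seq counts of each gene, with a column for each of the 9 HC11 libraries. The submitters' processing notes name Bowtie 0.12.2 and mm8. Gene positions in that table nevertheless match GENCODE M21, a GRCm38 annotation, at both ends for 53585 of 54495 shared IDs (98.3%), and GRCm38 positions are given. Which program counted the reads, with which strand option, and whether genes were filtered is not stated. The deposited table also holds a gene length per row, which equals the summed exon length for 98.0% of these genes and was used for levels per kilobase and in no test.

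All genes were fitted together with edgeR 4.0.16 (R 4.3.3) after TMM scaling and filterByExpr. The fit used all 9 libraries and no block, leaving 6 residual degrees of freedom, and its quasi-likelihood test was two-sided, with Benjamini-Hochberg adjustment over 14471 genes and a threshold of 0.05. CPM values are TMM-scaled, and SEs come from the fitted log2 difference and its F statistic. DESeq2 1.42.0, limma-voom (limma 3.58.1), other scaling, no filter on low counts, a replicate block, removal of a GC trend (a spline with 5 degrees of freedom), the mitochondrial share as a covariate, the libraries under 5% alone, and leaving out each library were alternatives. The scripts were tested on simulated data. Where no read was counted, 3 counts was taken as the limit (0.174 to 0.206 CPM, depending on the library), which covers counting error only. Library pairs of 1 group differed by more than sampling noise, so none was merged, which does not show that they are separate cultures.

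Named genes are the 10 coat genes, set genes of the 5 pathway lists, and the 5 genes with the highest Pearson's r with Sec23a among genes of at least 5 CPM, without predicted genes and pseudogenes. The coat genes, the lists and the marker lists were chosen with earlier results of these data known. Promoter sequences are from RefSeq, whose table held all 10 coat genes.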

Additional observations from a re-analysis of the deposited data

How the results depend on the processing

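In EpPT2 against Ctrl, the count of coat genes at an adjusted p under 0.05 was 0 by edgeR and also 0 by DESeq2 and limma-voom, and 1 without a filter on low counts (Sec23a, adjusted p 0.0427, and 0.0966 to 0.919 under its other alternatives). All genes called in that comparison numbered 0 by edgeR, 61 by DESeq2 and 0 by limma-voom, with 1763, 2163 and 1757 at an unadjusted p under 0.05. The count of coat genes at an unadjusted p under 0.05, which was 1, was 2 without a filter, 3 with the mitochondrial share as a covariate (Sec23a, Sec24a and Sec24d, where 24.4% of all tested genes were called, against 12.2% without it), 0 in the libraries under 5% alone, where EpPT2 replicate 1 stands alone and is assumed to vary like the other groups, and 1 to 2 when 1 library was left out (2 without Ctrl replicate 1 or Ctrl replicate 2). With the replicate number as a block it was 2 (Sec23a and Sec23b), and 21.1% of all tested genes were called. Same-numbered libraries of different groups had correlations of their deviations between -0.636 and 0.732, so the numbers are not taken to pair the libraries. In EpPT2 against EpPT1 the count was 0 to 1 when 1 library was left out (1, Sec23b, without EpPT1 replicate 3). Without that library, 709 of 14869 tested genes (4.77%) were at an unadjusted p under 0.05 by edgeR. With all 9 libraries, 31 genes (0.214%) were. In EpPT1 against Ctrl, 4 to 10 coat genes were below 0 when 1 library was left out (4 without Ctrl replicate 3 and 10 without Ctrl replicate 1).

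In the comparisons of EpPT2 with Ctrl and with EpPT1, 38 values of the log2 difference, in 8 coat genes, had the other sign under an alternative, none of them at an adjusted p under 0.05, and the causes were not tested. In EpPT1 against Ctrl 13 values in 7 coat genes had the other sign. In EpPT2 against Ctrl, removing the GC trend gave -0.094 for Sec24c and 0.037 for Sar1b. The mitochondrial covariate gave -0.070 for Sec24c and -0.079 for Sar1a. The libraries under 5% alone gave -0.00169 for Sec24c, 0.21 for Sec13 and -0.060 for Sar1a. Leaving out 1 library gave -0.18 to 0.67 for Sec24c, -0.12 to 0.27 for Sar1a, -1.40 to 0.027 for Sec24a and -0.26 to 0.29 for Sec31a. In EpPT2 against EpPT1, removing the GC trend gave 0.032 for Sec23a and 0.072 for Sar1b. The mitochondrial covariate gave -0.351 for Sec24a, -0.064 for Sec24c, -0.047 for Sec31a and -0.015 for Sar1a. The libraries under 5% alone gave -0.45 for Sec24a, -0.082 for Sec24c, 0.042 for Sec13, -0.025 for Sec31a and -0.13 for Sar1a. Leaving out 1 library gave -0.33 to 0.15 for Sec24d, -0.16 to 0.075 for Sar1b, -0.18 to 0.36 for Sec24a and -0.00277 to 0.32 for Sec31a. The differences of Sec23a, Sec23b, Sec24b and Sec24d in EpPT2 against Ctrl kept their sign under all alternatives. The SE of a coat gene's log2 difference, 0.19 to 0.58, limits how small a difference could pass.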
